A study of Mus musculus with 27 samples.

Results

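The T-box genes other than Tbx3 examined here were T, Eomes, Tbx1, Tbx2, Tbx4, Tbx5, Tbx6, Tbx15, Tbx18 and Tbx20, taken by their symbol from the expression tables, and they make up 10 of the 20156 genes listed there. Their transcripts were followed in 6 RNA-seq libraries, and the chromatin within 1000 bp of their transcription start site (TSS) in 21 ChIP-seq libraries of nucleosomes released by micrococcal nuclease (MNase). H3, H3K4me3 and H3K27me3 were sequenced in 2 replicates of each of 3 cell types, and H3K9me3 in 1 library of each. MEFs are fibroblasts from day 13.5 mouse embryos that were hemizygous for an Oct4-GFP transgene and for a Rosa26 allele, on a background given as CBA/CaJ and C57BL/6J, with 129Sv/Jae mothers according to the methods of the study. Pre-iPSCs are a stable intermediate obtained from such MEFs with retroviral Oct4, Sox2, Klf4 and c-Myc, and iPSCs are the fully reprogrammed cells derived from them. All 3 cell types thus carry the same reporter background, and both reprogrammed types carry the viral factors and were kept for 6 passages on inactivated MEF feeders in medium with serum and LIF. The study used stable pre-iPSC clones, and the clone or culture behind a library is not given in the sources used here, so a p-value measures the spread between these libraries only. MNase digestion differed in amount and time between MEFs and the reprogrammed cells, and its effect on a difference from MEFs cannot be told apart from that of the cell type.

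T-box proteins share a DNA-binding domain named after T (Brachyury), and they switch genes on or off in the early mesoderm, the heart and the limbs. T, Eomes and Tbx6 act in the primitive streak and the mesoderm it gives rise to, Tbx1, Tbx5 and Tbx20 in the heart and its precursor fields, and Tbx2, Tbx4, Tbx15 and Tbx18 in limb, skin and other mesenchyme. Their promoters are classic targets of Polycomb, the complex that deposits H3K27me3 on silent developmental genes, whereas H3K4me3 marks promoters that are active or poised. In pluripotent cells many such promoters carry both marks.

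Promoter sequences are shown for the members whose RefSeq start coincides with the TSS around which the marks were counted, so that the DNA under the counts can be read. RefSeq promoter entries (GRCm38.p6) were matched for 7 of the 10 members, and those of T, Eomes, Tbx6, Tbx20 and Tbx18 began at the TSS of the tables. Each run holds the 250 bases before the start, 5′ to 3′ on the strand of the gene, and capitals mark the dinucleotide CG. In GRCm38.p6 they are chr17:8434173-8434422 (plus strand) for T, chr9:118477939-118478188 (plus) for Eomes, chr7:126781233-126781482 (plus) for Tbx6, chr9:24774304-24774553 (minus) for Tbx20 and chr9:87731261-87731510 (minus) for Tbx18.
T: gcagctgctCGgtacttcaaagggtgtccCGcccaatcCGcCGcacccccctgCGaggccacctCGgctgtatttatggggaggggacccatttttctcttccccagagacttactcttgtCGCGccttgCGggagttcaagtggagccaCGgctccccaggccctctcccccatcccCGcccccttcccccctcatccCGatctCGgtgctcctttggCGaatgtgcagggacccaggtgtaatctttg
Eomes: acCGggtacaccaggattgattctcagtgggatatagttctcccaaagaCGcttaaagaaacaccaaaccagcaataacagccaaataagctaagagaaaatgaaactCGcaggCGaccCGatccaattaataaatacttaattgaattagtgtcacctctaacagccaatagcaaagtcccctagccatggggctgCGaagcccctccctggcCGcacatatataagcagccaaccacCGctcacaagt
Tbx6: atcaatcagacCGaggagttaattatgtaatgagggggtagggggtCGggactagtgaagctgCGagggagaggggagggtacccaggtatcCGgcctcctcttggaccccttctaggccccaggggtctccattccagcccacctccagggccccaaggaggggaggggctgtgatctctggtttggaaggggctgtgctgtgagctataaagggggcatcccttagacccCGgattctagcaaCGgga
Tbx20: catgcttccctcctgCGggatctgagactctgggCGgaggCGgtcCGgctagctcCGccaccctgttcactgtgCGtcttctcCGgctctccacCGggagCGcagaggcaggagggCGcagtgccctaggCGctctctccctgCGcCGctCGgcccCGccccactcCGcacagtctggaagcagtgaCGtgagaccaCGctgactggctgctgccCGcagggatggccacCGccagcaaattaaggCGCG
Tbx18: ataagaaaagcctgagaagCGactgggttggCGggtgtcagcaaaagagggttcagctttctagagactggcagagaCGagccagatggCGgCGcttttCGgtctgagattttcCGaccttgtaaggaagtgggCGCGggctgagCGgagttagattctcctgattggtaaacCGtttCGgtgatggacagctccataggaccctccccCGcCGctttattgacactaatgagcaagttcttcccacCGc
CG occurred 22 times in the Tbx20 promoter, 15 times in Tbx18, 14 times in T, 8 times in Eomes and 6 times in Tbx6, against a median of 6 over the 32841 promoters of the table. The GC content was 68.8% for Tbx20, 62.8% for T, 59.6% for Tbx6, 54.0% for Tbx18 and 46.4% for Eomes, against a median of 52.4%. Thus Tbx20 was the most CG-rich of these 5 promoters and Tbx6 lay at the median. The letters AGGTGT, the core that T-box proteins bind, were searched on both strands and found in the T promoter among the 5, and in 11.8% of all promoters. CCAAT was found in T, Eomes and Tbx18 and in 33.9% of all promoters, and TATAAA in Tbx6 and in 12.4%. Tbx2, Tbx5 and Tbx15 had no entry, and the entries of Tbx1 and Tbx4 begin elsewhere, as described with these genes.

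Of the 10 genes, Tbx15 alone reached 5 FPKM (fragments scaled to transcript length and library size) in any library, and it did so in all 4 MEF and pre-iPSC libraries. Between 4 and 5 members had at least 1 FPKM in each library of MEFs and pre-iPSCs, and 2 did in each library of iPSCs. Changes were fitted with limma on log2(FPKM + 1), which understates the change of low genes, for genes whose FPKM averaged at least 0.5. T, Tbx6 and Tbx20 were below that mean and were not tested. Tbx5 passed it through MEFs alone, Eomes through iPSCs alone and Tbx1 through pre-iPSCs alone. The fitted values of Tbx5, Eomes and Tbx1 are therefore given as a description, and so are the counts of tested members. Calls needed an adjusted p under 0.05 over all 12401 genes tested and a log2 change of at least 1. In pre-iPSCs against MEFs 1 of the 7 tested members was called higher (Tbx4) and 1 lower (Tbx5), where 16.4% of all genes were called, 7.39% higher and 9.0% lower. Compared with pre-iPSCs, 3 were called lower in iPSCs (Tbx4, Tbx15 and Tbx18) and 0 higher, where 8.62% of all genes were called, 3.91% higher and 4.71% lower. In iPSCs against MEFs 4 were called lower (Tbx2, Tbx5, Tbx15 and Tbx18) and 1 higher (Eomes), where 25.9% of all genes were called, 10.3% higher and 15.5% lower. The comparisons share libraries and are not independent of each other.

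**Figure D1:**
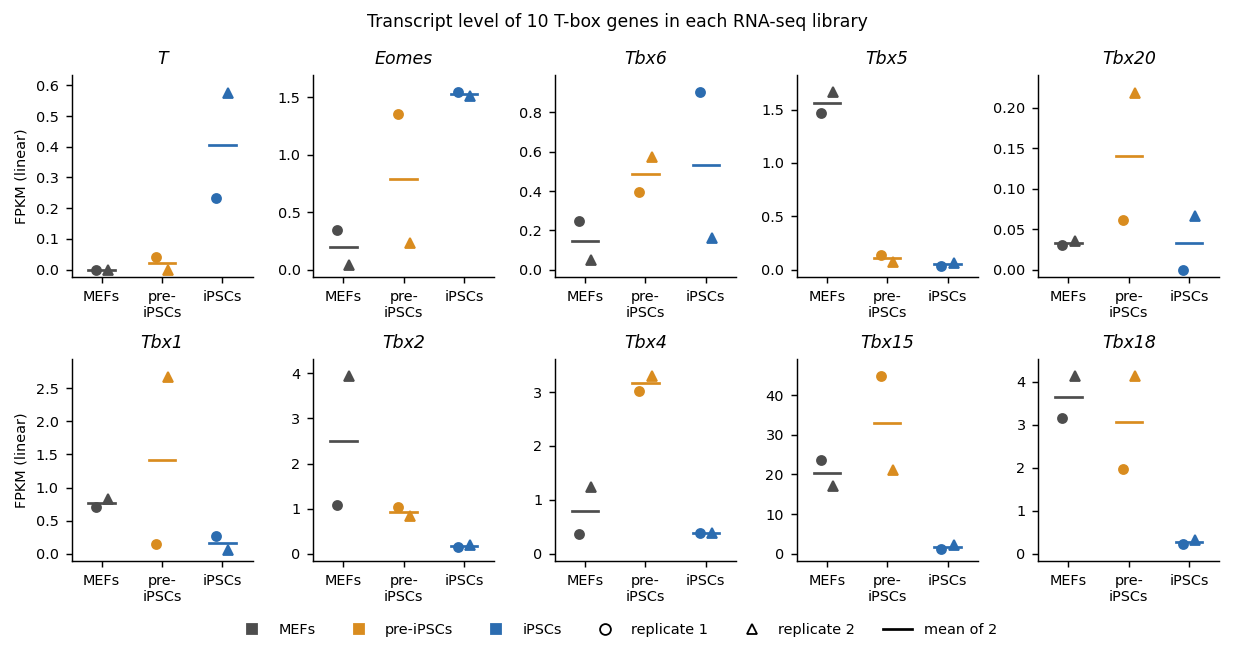
FPKM of the 10 T-box genes (linear axis, 1 panel per gene with its own scale) in the 6 RNA-seq libraries. Circles are replicate 1, triangles replicate 2 and lines the mean of both. Tbx15 lay between 17.1 and 44.7 FPKM in MEFs and pre-iPSCs and at 1.22 and 2.27 in iPSCs, and Tbx4 was highest in both pre-iPSC libraries.

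Markers set the scale for the cell types. The 16 fibroblast markers summed to between 5126 and 6250 FPKM in MEFs, against 371 to 630 in pre-iPSCs and 362 to 431 in iPSCs, and none was listed at 0 in any library. The 14 markers of pluripotent cells summed to 0.168 and 1.06 FPKM in MEFs, against 931 and 3750 in pre-iPSCs, with 2618 and 2523 in iPSCs. Their median was 1.30 and 1.31 FPKM in pre-iPSCs, where 6 and 7 of the 14 were below 1 FPKM, and 66.1 and 61.5 in iPSCs, where 0 were, so that a few markers carried the sums of pre-iPSCs. Pou5f1 (Oct4) and Sox2 are among the 14 and were also delivered by the virus. Reads of the viral copies were not separated here from those of the endogenous genes. Dppa3 and Nanog were among the 11 and 9 listed at 0 in MEFs, Dppa3 was listed at 0 in both pre-iPSC libraries, and none was at 0 in iPSCs. The feeders of the reprogrammed cells are fibroblasts too, and the part of these fibroblast transcripts in the levels of the T-box genes was not tested. In bulk RNA, fewer cells that transcribe a gene and less RNA per cell cannot be told apart. The sources used here do not say whether the RNA libraries kept the strand, so reads of an antisense transcript would be counted with the gene.

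H3K4me3 and H3K27me3 reads of called nucleosomes were summed within 1000 bp of each TSS and are given as RPKM (reads scaled to window length and to the unique reads of the library). The median of all promoters lay between 0.812 and 1.22 RPKM for H3K4me3 and between 0.182 and 0.259 for H3K27me3 in the 6 libraries of each mark. In both MEF replicates 6 of the 10 members (T, Eomes, Tbx1, Tbx4, Tbx5 and Tbx20) lay above the 75th percentile of all promoters for H3K27me3, where 19.8% of all promoters did. In pre-iPSCs and in iPSCs 5 members did (T, Tbx1, Tbx4, Tbx5 and Tbx20), where 18.9% and 18.6% of all promoters did. For H3K4me3, 2 members in MEFs, but 5 in pre-iPSCs and 6 in iPSCs, lay above the median promoter in both replicates, against 45.2%, 42.9% and 41.6% of all promoters, and above the 75th percentile 1, 2 and 0 members did, against 17.6%, 15.5% and 15.3%. A member's percentile was the share of promoters below it, whereas the shares of all promoters gave tied promoters their mean rank. The cut for members was thus the stricter one. These shares over the members are a description and were not tested.

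**Figure D2:**
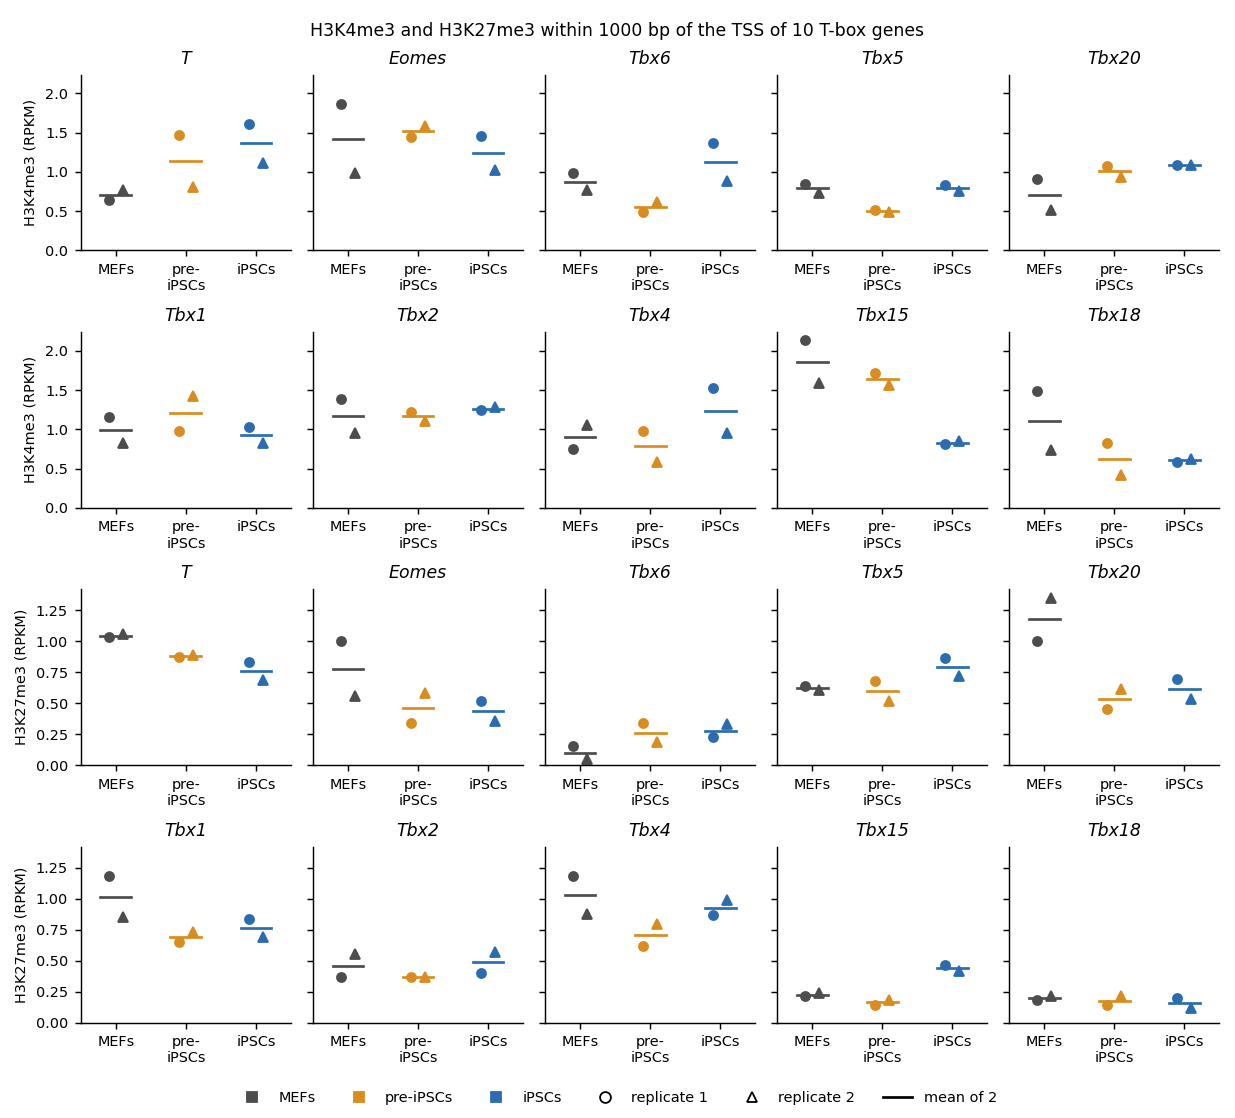
H3K4me3 (upper rows) and H3K27me3 (lower rows) within 1000 bp of the TSS of each gene, in RPKM on linear axes shared by each row, with circles for replicate 1, triangles for replicate 2 and lines for the mean. H3K27me3 at Tbx20 was 1.00 and 1.35 RPKM in MEFs and at most 0.692 in the other libraries, and H3K4me3 at Tbx15 was below 1 RPKM in both iPSC libraries.

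Counts at promoters were tested with the quasi-likelihood test of edgeR (TMM scaling, adjusted p below 0.05 over all promoters tested). For H3K4me3 all 10 members were tested. In pre-iPSCs against MEFs 1 was called higher (T), where 3.85% of 17700 promoters were called, 3.05% higher and 0.797% lower. Comparing iPSCs with MEFs, T and Tbx20 were called higher and Tbx15 lower, where 13.7% of promoters were called, 9.74% higher and 4.01% lower. Between iPSCs and pre-iPSCs edgeR called 0 members and 0% of all promoters, with 1581 of 17700 promoters at an unadjusted p below 0.05, and DESeq2 also called 0, with 310 at that level. For H3K27me3 9 members were tested, since Tbx18 had too few reads. Tbx15 passed the filter on low counts through iPSCs alone and Tbx6 through reprogrammed libraries alone. Their fitted H3K27me3 values are therefore given as a description. Tbx20 was called lower in pre-iPSCs and in iPSCs against MEFs, where 8.10% (5.01% higher and 3.09% lower) and 11.2% (7.33% higher and 3.88% lower) of 10407 promoters were called. Between iPSCs and pre-iPSCs edgeR called 0 members, 1 having an unadjusted p below 0.05, where 0.798% of promoters were called, 0.663% higher and 0.135% lower. DESeq2 called 0 members in every comparison of either mark. Scaled to unique reads instead of TMM, the median H3K4me3 change of all promoters was -0.40 in pre-iPSCs and -0.38 in iPSCs against MEFs, and the split of calls turned from 540 higher and 141 lower to 232 and 1134 in pre-iPSCs, and from 1724 and 709 to 842 and 2370 in iPSCs, so the H3K4me3 changes of single genes are relative to the other promoters.

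**Figure D3:**
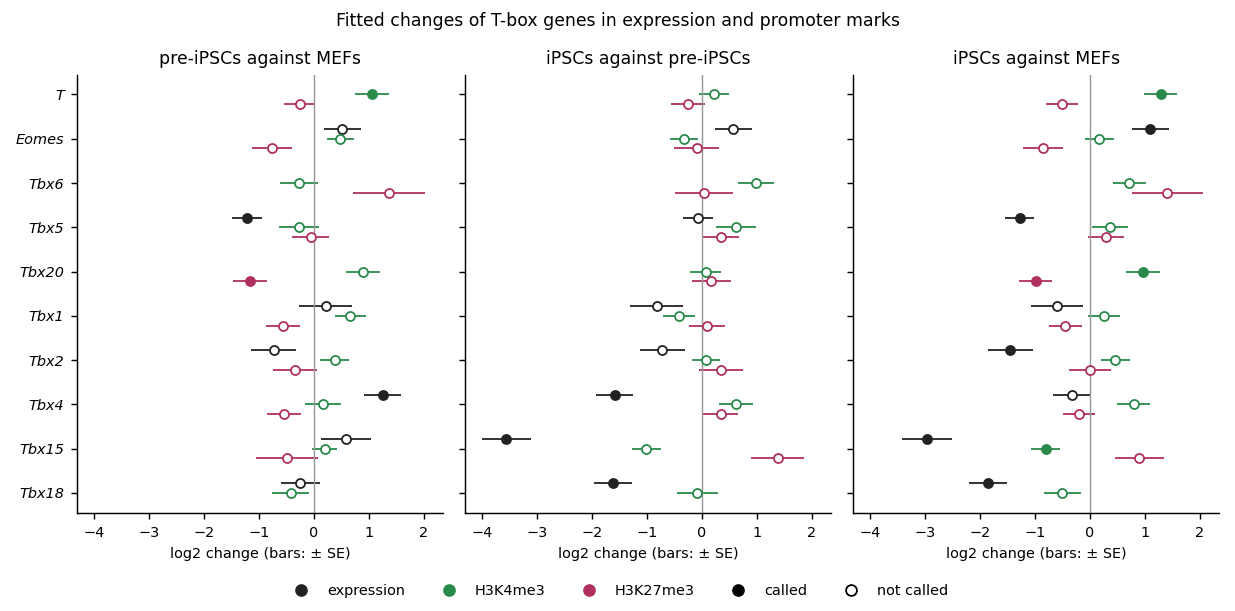
Fitted log2 changes (points, bars ± SE) of each T-box gene in expression (black), H3K4me3 (green) and H3K27me3 (red) for the 3 comparisons. Filled points were called. Tbx15 expression changed by -3.56 in iPSCs against pre-iPSCs and by -2.96 against MEFs, on the log2(FPKM + 1) scale, and Tbx20 was the gene with called changes of both marks in iPSCs against MEFs.

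T encodes Brachyury, the activator needed for the notochord and the posterior mesoderm, and lies on mm9 chr17:8627288-8635361 (plus strand). Its transcript was listed at 0 FPKM in both MEF replicates, at 0.0407 and 0 in pre-iPSCs, and at 0.234 and 0.576 in iPSCs. These values stand for about 1 fragment in pre-iPSC replicate 1 and for about 6 and 13 fragments in the iPSC libraries, so T was detected in both iPSC libraries and nearly absent from the rest. H3K4me3 at its promoter amounted to 19 and 24 reads in MEFs (0.644 and 0.764 RPKM), against 48 and 25 in pre-iPSCs (1.47 and 0.812), with 52 and 34 in iPSCs (1.61 and 1.12). Every pre-iPSC and iPSC library was above both MEF libraries, with pre-iPSC replicate 2 close to them. The log2 change was 1.29 ± 0.30 (SE) in iPSCs against MEFs (adjusted p = 0.00352) and 1.07 ± 0.31 in pre-iPSCs against MEFs (adjusted p = 0.0390). The first call was lost without MEF replicate 1 (1.02, adjusted p = 0.101) or iPSC replicate 1 (1.05, adjusted p = 0.0710), and the second without MEF replicate 1 (0.80, adjusted p = 0.357) or pre-iPSC replicate 1 (0.62, adjusted p = 0.525), and under several other settings. H3K27me3 at T lay between the 90.5th and 98.3rd percentile of all promoters, lowest in iPSC replicate 2. Within 500 bp of the TSS it lay at the 89.6th and 81.9th percentile in iPSCs. Within 1000 bp there were 34 and 40 reads in MEFs (1.03 and 1.06 RPKM), against 31 and 29 in pre-iPSCs (0.872 and 0.886), with 29 and 23 in iPSCs (0.836 and 0.687). The MEF libraries were the highest and the iPSC libraries the lowest, and the change in iPSCs against MEFs was -0.51 ± 0.30 (adjusted p = 0.277). The 250 bases printed above hold 14 CG, the motif AGGTGT and the letters CCAAT.

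Eomes encodes the activator that specifies definitive endoderm and early mesoderm and is also used by the trophoblast (mm9 chr9:118387307-118395250, plus strand). Its FPKM was 0.345 and 0.0418 in MEFs, against 1.35 and 0.229 in pre-iPSCs, with 1.54 and 1.52 in iPSCs. The iPSC libraries were alike and highest, whereas pre-iPSC replicate 1 was close to iPSCs and replicate 2 to MEFs. The log2 change in iPSCs against MEFs was 1.10 ± 0.33 (adjusted p = 0.0481), with a mean FPKM 7.91 times higher. Since Eomes entered the fit only through the iPSC libraries, where it was high, this is a description, and with no filter the adjusted p was 0.148. That call was lost without any 1 of the MEF or iPSC libraries, with log2 changes of 0.78 to 1.41 and adjusted p between 0.0587 and 0.210, and also without a term for the table (adjusted p = 0.0560) and after quantile normalization (adjusted p = 0.0659). The 6 trophoblast markers summed to 1.49 and 2.14 FPKM in MEFs, against 1.82 and 2.70 in pre-iPSCs, with 19.6 and 4.80 in iPSCs, with Cdx2 at 0 in iPSC replicate 1 and Elf5 at 0 in replicate 2. Their median was 0 and 0.0212 FPKM in MEFs, against 0.162 and 0.228 in pre-iPSCs, with 0.215 and 0.250 in iPSCs. In iPSCs 4 and 5 of the 6 markers were below 1 FPKM, so a few markers carried those sums. Their part in the Eomes level was not tested. H3K4me3 at Eomes was 1.86 and 0.987 RPKM in MEFs, against 1.44 and 1.59 in pre-iPSCs, with 1.46 and 1.02 in iPSCs. These overlapped between all cell types, and no change was called. H3K27me3 was 1.00 and 0.556 RPKM in MEFs, against 0.338 and 0.581 in pre-iPSCs, with 0.519 and 0.358 in iPSCs, and the change in iPSCs against MEFs, -0.86 ± 0.36, had an adjusted p of 0.114. Without MEF replicate 2 it passed (-1.36, adjusted p = 0.0217).

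Tbx6 directs cells of the streak to the paraxial mesoderm that forms the somites (mm9 chr7:133924997-133929062, plus strand). Its FPKM was 0.246 and 0.0474 in MEFs, against 0.397 and 0.575 in pre-iPSCs, with 0.903 and 0.162 in iPSCs, or about 4, 1, 8, 13, 19 and 3 fragments. Both pre-iPSC libraries were above both MEF libraries, and the iPSC replicates, the highest library and 1 of the lower ones, overlapped with either group. H3K4me3 was 0.983 and 0.764 RPKM in MEFs, against 0.491 and 0.617 in pre-iPSCs, with 1.37 and 0.889 in iPSCs, lowest in both pre-iPSC libraries. The increase in iPSCs against pre-iPSCs was 0.99 ± 0.33 on the log2 scale (adjusted p = 0.298) and was not called. H3K27me3 was the lowest of all members in MEFs, with 5 and 2 reads, followed by 12 and 6 in pre-iPSCs, with 8 and 11 in iPSCs. All reprogrammed libraries were above the MEF libraries, and the log2 changes of 1.37 ± 0.65 in pre-iPSCs and 1.40 ± 0.65 in iPSCs had adjusted p of 0.205 and 0.151. Tbx6 passed the filter on low counts for this mark only through reprogrammed libraries, so these changes are a description. The nearest other TSS, that of Ypel3, is 4508 bp away.

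Tbx5 is required to start the forelimb and to form the heart (mm9 chr5:120284672-120335227, plus strand). It was read at 1.47 and 1.66 FPKM in MEFs, against 0.141 and 0.0717 in pre-iPSCs, with 0.0387 and 0.0658 in iPSCs. The MEF libraries stood far above the other 4, of which both pre-iPSC libraries were slightly above both iPSC libraries. Mean FPKM was 14.7 times higher in MEFs than in pre-iPSCs and 30.0 times higher than in iPSCs. The fitted log2 change against MEFs was -1.21 ± 0.27 in pre-iPSCs (adjusted p = 0.0228) and -1.29 ± 0.27 in iPSCs (adjusted p = 0.0137), and between pre-iPSCs and iPSCs it was -0.07 (adjusted p = 0.927). Since Tbx5 entered the fit only through the group where it was high, these are descriptions, and with no filter the adjusted p were 0.0767 in pre-iPSCs and 0.0329 in iPSCs. The calls were lost without pre-iPSC replicate 2 (adjusted p = 0.0764) and without iPSC replicate 1 or 2 (adjusted p = 0.0762 and 0.0676), respectively, with log2 changes of -1.13 to -1.30. Neither mark changed detectably. H3K4me3 was 0.847 and 0.733 RPKM in MEFs, against 0.521 and 0.487 in pre-iPSCs, with 0.838 and 0.757 in iPSCs, and H3K27me3 was 0.637 and 0.609, 0.675 and 0.520, and 0.865 and 0.716 RPKM. The H3K4me3 level was thus lowest in pre-iPSCs and like that of MEFs in iPSCs, where little transcript was found.

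Tbx20 works with Tbx5 in the heart chambers and was the member with called changes of both marks (mm9 chr9:24525256-24578747, minus strand). Its transcript was 0.0299 and 0.0348 FPKM in MEFs, against 0.0612 and 0.218 in pre-iPSCs, with 0 and 0.0659 in iPSCs. The gene was close to undetected everywhere, with both pre-iPSC libraries above both MEF libraries and the iPSC replicates on either side of MEFs. H3K27me3 at its promoter was 33 and 51 reads in MEFs (1.00 and 1.35 RPKM), against 16 and 20 in pre-iPSCs (0.450 and 0.611), with 24 and 18 in iPSCs (0.692 and 0.537). Both MEF libraries exceeded all others, and stood at the 97.9th and 99.8th percentile of all promoters. H3K27me3 fell in pre-iPSCs (-1.16 ± 0.31, adjusted p = 0.0102) and in iPSCs (-0.99 ± 0.30, adjusted p = 0.0213) against MEFs. The calls were lost without MEF replicate 2 (-1.02 and -0.88, adjusted p = 0.121 and 0.154), the first also without pre-iPSC replicate 1 (-0.99, adjusted p = 0.174) and the second without iPSC replicate 1 (-1.22, adjusted p = 0.0569) or 2 (-0.88, adjusted p = 0.146), and both within 500 bp of the TSS (-1.12 and -1.33, adjusted p = 0.132 and 0.0659). H3K4me3 was 27 and 16 reads in MEFs (0.915 and 0.510 RPKM), against 35 and 29 in pre-iPSCs (1.07 and 0.942), with 35 and 33 in iPSCs (1.09 and 1.09). All reprogrammed libraries were above both MEF libraries, and 7 of the 29 reads of pre-iPSC replicate 2 lay in 1 call at the edge of the window. The log2 change was 0.96 ± 0.31 (adjusted p = 0.0285) in iPSCs and 0.89 ± 0.31 (adjusted p = 0.0878) in pre-iPSCs against MEFs. The iPSC call was lost without any 1 of the MEF or iPSC libraries (log2 changes of 0.73 to 1.27, adjusted p between 0.0612 and 0.161), and when scaled to unique reads (0.61, adjusted p = 0.183). From 10 to 5 kb upstream of the Tbx20 TSS H3K27me3 was 1.03 and 0.699 RPKM in MEFs and at most 0.587 in the other 4 libraries, and from 5 to 10 kb downstream it was 0.994 and 0.784 RPKM in MEFs and at most 0.552 elsewhere. In the regions between, from 5 to 1 kb upstream and from 1 to 5 kb downstream, MEF replicate 2 lay within the range of the reprogrammed cells. H3 within 1000 bp of the Tbx20 TSS was 0.369 and 0.306 RPKM in MEFs, against 0.847 and 0.171 in pre-iPSCs, with 0.420 and 0.200 in iPSCs. The edgeR change of H3 against MEFs was -0.43 ± 0.41 in pre-iPSCs (adjusted p = 0.871) and -0.70 ± 0.42 in iPSCs (adjusted p = 0.937). The part of the H3 level in the mark changes of Tbx20 was not tested.

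Tbx1 patterns the pharyngeal arches and the second heart field (mm9 chr16:18581806-18587062, minus strand). Its FPKM was 0.709 and 0.821 in MEFs, against 0.143 and 2.68 in pre-iPSCs, with 0.274 and 0.0518 in iPSCs. The pre-iPSC libraries, at about 3 and 64 fragments, were the lowest and the highest of MEFs and pre-iPSCs, and both iPSC libraries were below MEFs. No change was called, the largest being -0.82 ± 0.48 in iPSCs against pre-iPSCs (adjusted p = 0.385). Since Tbx1 entered the fit only through the pre-iPSC libraries, mainly replicate 2, this is a description. Without pre-iPSC replicate 1 the change in iPSCs against pre-iPSCs was -1.71, and it then rested on replicate 2 alone. H3K4me3 was 1.15 and 0.828 RPKM in MEFs, against 0.981 and 1.43 in pre-iPSCs, with 1.02 and 0.823 in iPSCs, with overlap between all cell types. H3K27me3 was 1.18 and 0.848 RPKM in MEFs, against 0.647 and 0.734 in pre-iPSCs, with 0.836 and 0.687 in iPSCs. RefSeq holds starts 1930 and 3702 bp upstream of the TSS of the tables. Within 1000 bp of the first of them H3K27me3 was 1.12 and 1.48 RPKM in MEFs, against 1.29 and 1.07 in pre-iPSCs, with 1.10 and 0.836 in iPSCs. At the second it was 1.09 and 1.43 RPKM in MEFs, against 0.957 and 0.825 in pre-iPSCs, with 1.18 and 1.13 in iPSCs. The pre-iPSC libraries lay among the others at the first start and were the lowest at the second, which was not tested.

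Tbx2 encodes a repressor of the heart, limb and other organs (mm9 chr11:85646117-85655450, plus strand). The next gene downstream, 48114 bases away, is Tbx4, so that 2 members form a pair on 1 strand. Tbx2 was read at 1.08 and 3.93 FPKM in MEFs, against 1.03 and 0.838 in pre-iPSCs, with 0.151 and 0.195 in iPSCs. MEF replicate 1 was like the pre-iPSC libraries, replicate 2 was far above them, and both iPSC libraries were the lowest. Tbx2 fell in iPSCs against MEFs (-1.45 ± 0.40, adjusted p = 0.0369), with means 14.5-fold apart. With no filter on low values the adjusted p of the fall was 0.190. Without MEF replicate 2 the change was -0.81 (adjusted p = 0.145), and the call was also lost without iPSC replicate 1 (-1.70, adjusted p = 0.132) or 2 (-1.20, adjusted p = 0.225). The change in pre-iPSCs against MEFs, -0.73 ± 0.40 (adjusted p = 0.271), passed without MEF replicate 1 (-1.37, adjusted p = 0.0267). H3K4me3 remained between 0.955 and 1.39 RPKM in all 6 libraries and H3K27me3 between 0.364 and 0.567, and for both marks the MEF replicates overlapped with the libraries of the other cell types.

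Tbx4 is needed for hindlimb outgrowth and for the allantois (mm9 chr11:85703565-85729599, plus strand). Its FPKM was 0.365 and 1.23 in MEFs, against 3.03 and 3.30 in pre-iPSCs, with 0.393 and 0.379 in iPSCs. It was the member with its highest level in both pre-iPSC libraries, which lay above all others. Tbx4 rose in pre-iPSCs against MEFs (1.25 ± 0.34, adjusted p = 0.0445) and fell in iPSCs against pre-iPSCs (-1.59 ± 0.34, adjusted p = 0.0299), with iPSCs against MEFs at -0.33 (adjusted p = 0.506). With no filter on low values the adjusted p were 0.165 for the rise and 0.143 for the fall. The rise was lost without MEF replicate 1 (0.92, adjusted p = 0.183), without either pre-iPSC library (1.13 and 1.38, adjusted p = 0.161 and 0.0746) or either iPSC library (1.25 in both, adjusted p = 0.0743 and 0.0760), and with a pseudocount of 0.1 (2.05, adjusted p = 0.0698) or quantile normalization (1.02, adjusted p = 0.0874). The fall was lost without pre-iPSC replicate 1 (-1.46, adjusted p = 0.0815) and without iPSC replicate 1 or 2 (-1.79 and -1.38, adjusted p = 0.140 and 0.201). At the TSS of the tables H3K4me3 was 0.745 and 1.05 RPKM in MEFs, against 0.981 and 0.585 in pre-iPSCs, with 1.52 and 0.954 in iPSCs, and H3K27me3 was 1.18 and 0.874, 0.619 and 0.795, and 0.865 and 0.985 RPKM. The pre-iPSC libraries were the lowest for H3K27me3, and no change of either mark was called. The H3K4me3 change in iPSCs against MEFs, 0.79 ± 0.30 (adjusted p = 0.0690), passed without MEF replicate 2 (1.22, adjusted p = 0.0311) and without iPSC replicate 2 (1.02, adjusted p = 0.0327). The RefSeq start of Tbx4 lies 6702 bp downstream. Within 1000 bp of it, H3K27me3 was 1.06 and 0.795 RPKM in MEFs, against 0.366 and 0.183 in pre-iPSCs, with 0.980 and 0.806 in iPSCs, and H3K4me3 was 0.576 and 0.605, 1.17 and 1.46, and 1.02 and 1.38 RPKM. At that start both pre-iPSC libraries were the lowest in H3K27me3, whereas H3K4me3 was lowest in both MEF libraries. It was looked at after the values at the first TSS were known, and was not tested.

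Tbx15 is expressed in mesenchyme of the skin and skeleton and was the most abundant member by FPKM (mm9 chr3:99057683-99158183, plus strand). It was read at 23.5 and 17.1 FPKM in MEFs, against 44.7 and 21.1 in pre-iPSCs, with 1.22 and 2.27 in iPSCs. These levels lie between the 80.7th and 92.4th percentile of all genes in MEFs and pre-iPSCs and at the 48.6th and 54.1st in iPSCs. The groups of MEFs and pre-iPSCs overlapped, and both iPSC libraries were far below. The mean was 20.3 ± 4.58 FPKM in MEFs, against 32.9 ± 16.7 in pre-iPSCs and 1.75 ± 0.736 in iPSCs (SD, n = 2 each), 18.8-fold lower in iPSCs than in pre-iPSCs. Tbx15 fell in iPSCs against pre-iPSCs (-3.56 ± 0.45, adjusted p = 0.00485) and against MEFs (-2.96 ± 0.45, adjusted p = 0.00446), and the change in pre-iPSCs against MEFs was 0.59 (adjusted p = 0.431). With no filter on low values the adjusted p of the falls were 0.115 and 0.0860. The first call was lost without iPSC replicate 1 (-2.91, adjusted p = 0.0804) or 2 (-4.21, adjusted p = 0.0539) and the second without iPSC replicate 1 (-2.31, adjusted p = 0.0597). The summed fibroblast markers, given above, were already low in pre-iPSCs, and their part in the Tbx15 level was not tested.
H3K4me3 at Tbx15 was 63 and 50 reads in MEFs (2.13 and 1.59 RPKM), against 56 and 48 in pre-iPSCs (1.72 and 1.56), with 26 and 26 in iPSCs (0.807 and 0.856). Both iPSC libraries were below the other 4. H3K4me3 fell in iPSCs against MEFs (-0.81 ± 0.26, adjusted p = 0.0293), while -1.01 ± 0.26 in iPSCs against pre-iPSCs had an adjusted p of 0.157. The call was lost without any 1 of the MEF or iPSC libraries (log2 changes of -0.72 to -0.91, adjusted p between 0.0561 and 0.198), and within 500 bp of the TSS the change was -0.23 (adjusted p = 0.789). H3K27me3 was 7 and 9 reads in MEFs (0.212 and 0.238 RPKM), against 5 and 6 in pre-iPSCs (0.141 and 0.183), with 16 and 14 in iPSCs (0.461 and 0.418). The iPSC libraries were the highest, and the changes of 1.38 ± 0.49 against pre-iPSCs (adjusted p = 0.182) and 0.90 ± 0.45 against MEFs (adjusted p = 0.195) were not called. Since Tbx15 passed the filter on low counts for H3K27me3 only through iPSCs, where it was high, these changes are a description. From 1 to 5 kb downstream, H3K27me3 was 27 and 20 reads in MEFs, against 11 and 3 in pre-iPSCs, with 39 and 40 in iPSCs, and from 5 to 10 kb downstream it was 36 and 27, 14 and 7, and 43 and 43 reads. Along the first 10 kb of the gene, both pre-iPSC libraries were thus the lowest and both iPSC libraries the highest.

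**Figure D4:**
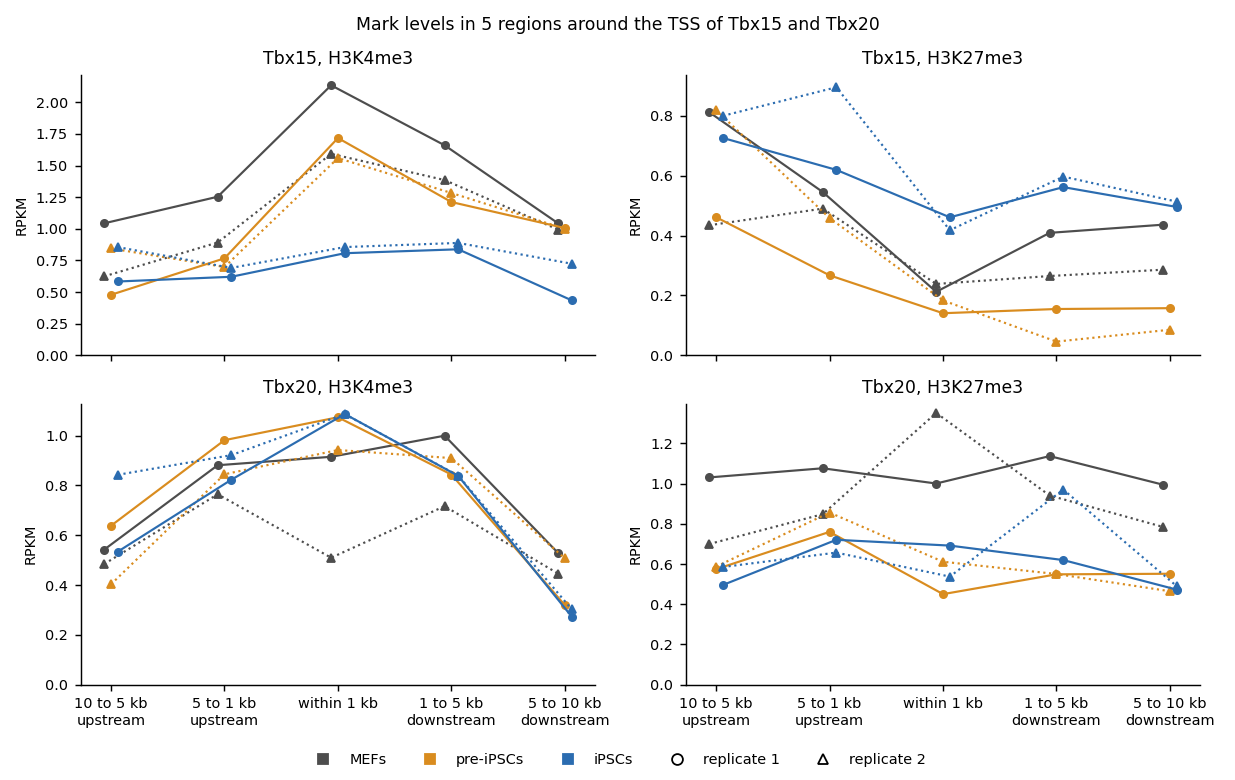
H3K4me3 and H3K27me3 in 5 regions from 10 kb upstream to 10 kb downstream of the TSS of Tbx15 and Tbx20, in RPKM on linear axes that start at 0, with circles and full lines for replicate 1 and triangles and dotted lines for replicate 2. Downstream of the Tbx15 TSS both iPSC libraries held the most H3K27me3 and both pre-iPSC libraries the least, and at the Tbx20 TSS both MEF libraries held the most.

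Tbx18 takes part in the sinus node, the epicardium and the somites (mm9 chr9:87597635-87626095, minus strand). Its FPKM was 3.17 and 4.13 in MEFs, against 1.98 and 4.13 in pre-iPSCs, with 0.226 and 0.330 in iPSCs. MEFs and pre-iPSCs overlapped and iPSCs were below both. Tbx18 fell in iPSCs against pre-iPSCs (-1.62 ± 0.35, adjusted p = 0.0326) and against MEFs (-1.86 ± 0.35, adjusted p = 0.00951), with means 11.0-fold and 13.1-fold apart, and the change in pre-iPSCs against MEFs was -0.24 (adjusted p = 0.707). With no filter on low values the adjusted p of the falls were 0.158 and 0.0817. The first call was lost without any 1 of the pre-iPSC or iPSC libraries (log2 changes of -1.33 to -1.90, adjusted p between 0.0683 and 0.250), and the second without iPSC replicate 1 (-2.07, adjusted p = 0.0691) or 2 (-1.64, adjusted p = 0.0871). H3K4me3 was 44 and 23 reads in MEFs (1.49 and 0.733 RPKM), against 27 and 13 in pre-iPSCs (0.828 and 0.422), with 19 and 19 in iPSCs (0.590 and 0.625). Both iPSC libraries were below MEFs but not below both pre-iPSC libraries, and no change was called. H3K27me3 was between 4 and 8 reads in every library, too few to be tested. H3 at Tbx18 was also low, between percentile 4.34 and 22.9 of all promoters in each library. The promoter printed above holds 15 CG.

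By the study's rule, a promoter is K4 or K27 where the mark exceeds 1 RPKM within 500 bp of the TSS, K4K27 where both do, and None otherwise. Here the rule was applied to reads of called nucleosomes scaled to unique reads, a stricter cut than with all aligned reads. K4 was met in both replicates by Tbx2, Tbx15 and Tbx18 in MEFs, by Tbx15 and Eomes in pre-iPSCs and by T, Eomes and Tbx6 in iPSCs. K4K27 was met by Eomes in MEF replicate 1 and by T in pre-iPSC replicate 1 and by no other member or library, where 0.437% to 0.903% of all promoters met it. Per library, K4 was met by 5 and 3 members in MEFs, against 4 and 3 in pre-iPSCs, with 5 and 4 in iPSCs, where 55.8% and 47.1%, 40.2% and 30.4%, and 44.3% and 32.1% of all promoters met it. K27 was met by 2 and 1 members in MEFs, by 0 in pre-iPSCs and by 1 and 0 in iPSCs, where 0.908% to 2.56% of all promoters met it. For 7 members the replicates of at least 1 cell type had different states.

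**Figure D5:**
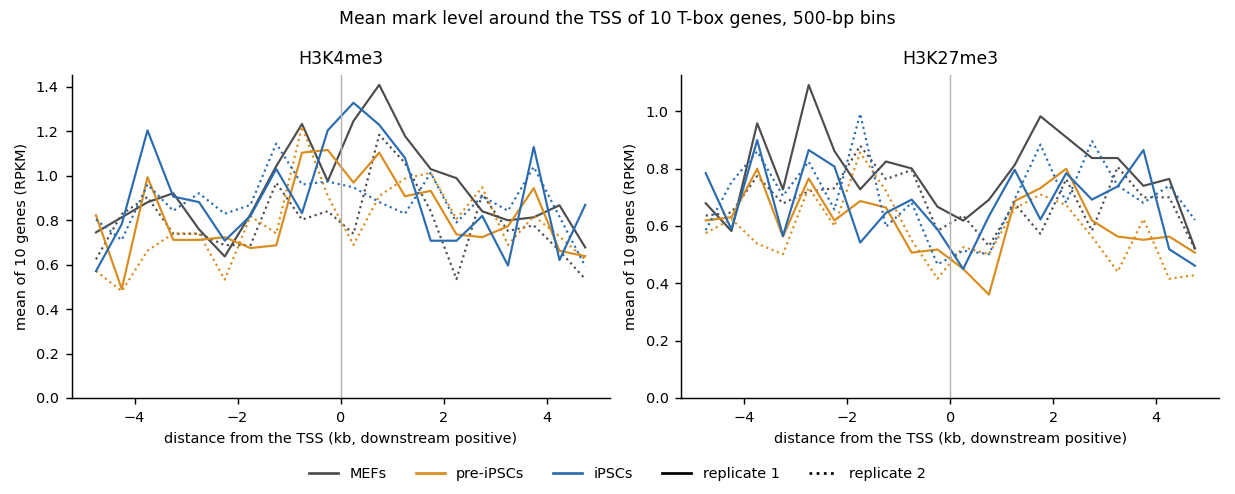
Mean H3K4me3 (left) and H3K27me3 (right) of the 10 T-box genes in 500-bp bins from 5 kb upstream to 5 kb downstream of the TSS, in RPKM on linear axes that start at 0. Full lines are replicate 1 and dotted lines replicate 2, and for H3K27me3 both MEF libraries lie above the others in the bin that begins at the TSS (0.618 and 0.636 RPKM, at most 0.526 in the others) and in some other bins, while in most bins of either mark the cell types overlap.

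H3 reads measure nucleosomes irrespective of their marks. At the T promoter they numbered 46 and 72 in MEFs, against 620 and 45 in pre-iPSCs, with 239 and 44 in iPSCs. Replicate 1 of pre-iPSCs and, less so, replicate 1 of iPSCs lay above the other 4 libraries at every member, by unlike amounts. At Tbx20 iPSC replicate 1 was 0.420 RPKM, against 0.369 in MEF replicate 1. The median promoter was also raised in replicate 1 of pre-iPSCs and iPSCs (0.551 and 0.408 RPKM, against 0.204 to 0.238 in the other 4). edgeR called 0 members and 0% of 19560 promoters in each comparison, with 373, 105 and 296 promoters at an unadjusted p below 0.05 in pre-iPSCs against MEFs, iPSCs against pre-iPSCs and iPSCs against MEFs, and DESeq2 also called 0, with 195, 40 and 134. Without pre-iPSC replicate 2, so that replicate 1 alone stood for pre-iPSCs, T (1.56, adjusted p = 0.00762), Tbx4 (1.30, adjusted p = 0.0236) and Tbx6 (1.15, adjusted p = 0.0443) were called higher than in MEFs, together with 1172 promoters higher and 3417 lower of 19598. Scaled to unique reads, the median H3 change of all promoters was 0.92 in pre-iPSCs and 0.60 in iPSCs against MEFs.

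H3K9me3, a mark of heterochromatin, had 1 library per cell type, so that the counts carry Poisson 95% intervals for counting error only and no test. At Tbx20 there were 25 reads in MEFs (16.2 to 36.9), against 12 in pre-iPSCs (6.20 to 21.0) and 12 in iPSCs (6.20 to 21.0). This was the highest of the members in MEFs, at the 99.1st percentile of all promoters, and 2.19-fold above pre-iPSCs, with overlapping intervals. At Tbx15 there were 5 reads in MEFs (1.62 to 11.7), against 6 in pre-iPSCs (2.20 to 13.1) and 13 in iPSCs (6.92 to 22.2), so the iPSC library was the highest, as it was for H3K27me3. T held 19, 19 and 21 reads and lay above the 95th percentile of all promoters in each library. RPKM differed by at least 2-fold for 3 members in pre-iPSCs against MEFs (Eomes, Tbx2 and Tbx20), for 2 in iPSCs against pre-iPSCs (Tbx15 and Tbx18) and for 4 in iPSCs against MEFs (Tbx2, Tbx6, Tbx15 and Tbx20), where 26.4%, 22.4% and 32.8% of all promoters did. The other members had between 3 and 20 reads in each library.

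The other T-box genes of the tables were Tbx3, Tbx10, Tbx19, Tbx21, Tbx22, Tbr1 and Mga, of which 2 of 7 were tested. Tbx3, which acts in pluripotent cells and in limbs, was 6.45 and 3.64 FPKM in MEFs, against 1.14 and 0.626 in pre-iPSCs, with 7.86 and 17.5 in iPSCs, and rose in iPSCs against pre-iPSCs (2.78 ± 0.50, adjusted p = 0.0168). Of 22 genes of the primitive streak and presomitic mesoderm 8 were tested. A gene can pass the filter through the group where it is high, so the counts of this list and of the next are a description. In iPSCs against MEFs 5 of the 8 tested genes rose and 2 fell, where 10.3% and 15.5% of all genes did. In iPSCs against pre-iPSCs 2 rose and 0 fell (3.91% and 4.71% of all genes), and in pre-iPSCs against MEFs 0 rose and 2 fell (7.39% and 9.0%). The Nodal ligand, which induces the streak and is also made by pluripotent cells, was listed at 0 in both MEF libraries, at 10.2 and 0.354 FPKM in pre-iPSCs and at 39.1 and 34.4 in iPSCs, rising by 3.27 ± 0.73 in iPSCs against pre-iPSCs (adjusted p = 0.0351). Cdx1, a target of Wnt in the posterior embryo, had 3.34 and 1.48 FPKM in iPSCs and at most 0.120 in the other 4 libraries, and passed the filter only through iPSCs, so its call is a description. Snai1, a factor of the mesenchymal transition, fell by 2.78 on the log2 scale in pre-iPSCs against MEFs (adjusted p = 0.00937).
Of 20 genes of the heart and limb fields 12 were tested, of which 1 rose and 4 fell in pre-iPSCs against MEFs, 1 rose and 1 fell in iPSCs against pre-iPSCs, and 2 rose and 6 fell in iPSCs against MEFs, beside the same shares of all genes. The member that rose in each comparison was Sall4, a zinc finger gene of limbs and of pluripotent cells, listed at 0 in MEFs, at 8.08 and 4.12 FPKM in pre-iPSCs and at 94.3 and 62.2 in iPSCs. Among those that fell, Pitx1, which specifies the hindlimb and acts before Tbx4 there, was 4.19 and 12.5 FPKM in MEFs, against 0.669 and 0.835 in pre-iPSCs, with 0.578 and 0.255 in iPSCs, and fell in pre-iPSCs relative to MEFs (-2.26 ± 0.46, adjusted p = 0.0166). Pitx1 was thus low in pre-iPSCs, where Tbx4 was highest, and the relation of these genes was not tested. Nppb, a natriuretic peptide gene of the heart, was 4.79 and 8.68 FPKM in MEFs, against 2.96 and 4.84 in pre-iPSCs, with 0.122 and 0.278 in iPSCs, and fell in iPSCs against pre-iPSCs (-2.01 ± 0.36, adjusted p = 0.0166).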

How the data were processed

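The members were taken by symbol from the expression tables, and the members and gene lists were chosen with earlier results of these data known. For RNA-seq the authors aligned reads to mm9 genes with TopHat2 2.0.4 and computed the deposited FPKM with Cuffdiff (Cufflinks 2.0.2). For ChIP-seq, Bowtie 1.0.1 was used by the authors for alignment to mm9. Unique reads of at most 2 mismatches were shifted by 73 bp, and GeneTrack turned them into nucleosome calls. Each call was deposited with its read count and its fuzziness, and reads outside calls were not used here. The calls held 67362868 to 108211816 reads per H3 library, 12007350 to 13146349 for H3K4me3, 13224775 to 15222040 for H3K27me3 and 12222861 to 12942154 for H3K9me3.

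Reads of calls with dyads within 1000 bp of the TSS were summed, and RPKM were scaled to the unique reads given by the study. The quasi-likelihood test of edgeR 4.0.16 was applied to the counts after filterByExpr and TMM, with DESeq2 1.42.0 as an alternative, and log2(FPKM + 1) with limma 3.58.1 (trend) with the expression table, which holds 1 replicate of each cell type, as a term. Adjusted p are Benjamini-Hochberg over all features tested. The SE of edgeR changes was derived from the F statistic and is approximate. An exact permutation test of 2 against 2 libraries cannot go below p = 0.333, so levels carry no such test. Fragments behind an FPKM were recovered from its steps: 94.8% to 97.7% of values of up to 5 fragments were whole within 0.15, and transcript lengths of Eomes, Tbx2 and Tbx15 came from a near match of coordinates.

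The tests were run on simulated data with 200 planted 4-fold changes in pre-iPSCs against MEFs. Of these, limma recovered 69 over 12161 genes, with 3 false calls. With edgeR, 200 were recovered for H3K4me3 over 17607 promoters (8 false calls), 200 for H3K27me3 over 10233 (11) and 100 for H3 over 19434 (5). For expression, noise was drawn at a single spread for all genes and without a table effect. Recovery where the spread depends on the level of the gene was thus not simulated. The changes were planted only in genes and promoters above a minimum mean level. Of the members, Tbx15 alone reached it for expression, and Eomes, Tbx2, Tbx6, Tbx15 and Tbx18 did not for H3K27me3. Recovery below that level, and of changes smaller than 4-fold, was not simulated. Every member is named, and of the gene lists at most the 3 largest called changes of a comparison. Motifs and CG were counted in the 250 bases before RefSeq starts, each of which matched mm9 once. Python 3.11.15, numpy 2.4.6, pandas 2.3.3, matplotlib 3.10.9 and R 4.3.3 were used.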

Additional observations from a re-analysis of the deposited data

How the results depend on the processing

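No log2 change of a called member changed its sign under any alternative. The counts of called members moved as follows. For expression in pre-iPSCs against MEFs, 2 members were called, 1 with a pseudocount of 0.1 or quantile normalization and 0 without the filter on low values. In iPSCs against pre-iPSCs, 3 were called and 0 without the filter, and in iPSCs against MEFs 5 were called, 1 without the filter and 4 after quantile normalization. Leaving out 1 library gave 0 to 2, 0 to 3 and 0 to 5 calls, and in each case the lone library was taken to vary like the other groups. Calls over all genes moved in the same fits, so these moves were not of the members alone. In every comparison calls over all genes fell without either pre-iPSC library or either iPSC library. They rose in every comparison without either MEF library. Without the filter, limma called 0 of 20156 genes in pre-iPSCs against MEFs (916 higher and 1116 lower with it), so that setting moved all genes and not the members alone. For H3K4me3 in pre-iPSCs against MEFs, 1 member was called, and 0 with DESeq2, with unique reads as library size, within 500 bp or with calls of at least 2 reads. In iPSCs against MEFs 3 were called, 0 with DESeq2, 1 within 500 bp and 2 with unique reads as library size. For H3K27me3, 1 was called in pre-iPSCs and in iPSCs against MEFs, 0 with DESeq2 or within 500 bp, and in iPSCs also 0 with calls of at least 2 reads. Leaving out 1 library gave 0 to 1 calls for H3K4me3 in pre-iPSCs, 0 to 3 in iPSCs, and 0 to 1 for H3K27me3. For H3 it gave 0 to 3. K4K27 was met in any library by 2 members, by 0 above 2 RPKM and by 4 when scaled to the reads in calls. Over all promoters DESeq2 called 31 higher and 0 lower for H3K4me3 in pre-iPSCs against MEFs (edgeR 540 and 141) and 115 and 4 in iPSCs (edgeR 1724 and 709), and for H3K27me3 35 and 10 (edgeR 521 and 322) and 13 and 6 (edgeR 763 and 404). The cause of these losses was not tested. For both marks, calls over all promoters against MEFs also fell when a library of either compared cell type was left out. The losses of members in those fits were thus not of the members alone. The sources used here do not tie replicate numbers to clones, and the correlations of replicate differences did not all exceed 0.1 in any assay. The fits of the marks therefore had no replicate block, whereas the expression fit had the table, and with it the replicate number, as a term. Between pre-iPSCs and iPSCs they were 0.793 for H3, 0.122 for H3K4me3, 0.112 for expression and 0.0352 for H3K27me3, and those with MEFs ranged from -0.205 to 0.346. With the replicate block the called members of H3K4me3 and H3K27me3 numbered the same, for example T in iPSCs against MEFs at 1.28 (adjusted p = 0.00354), and for expression without the block, that is without the table term, Eomes was lost (adjusted p = 0.0560). Depth limits the expression of T, Tbx6 and Tbx20, under 1 FPKM in every library, and the H3K27me3 of Tbx6, Tbx15 and Tbx18, at 2 to 16 reads.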

Other observations

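H3K27me3 around T was high well beyond its promoter. From 5 to 1 kb upstream it was 1.36 and 0.927 RPKM in MEFs, against 0.900 and 0.978 in pre-iPSCs, with 0.937 and 0.910 in iPSCs, and from 1 to 5 kb downstream 0.970 and 1.03, 0.774 and 0.871, and 0.720 and 0.851. At Tbx2 the level within 1000 bp of the TSS, between 0.364 and 0.567 RPKM, was below that of both flanks in every library, with 0.825 to 1.10 from 5 to 1 kb upstream and 0.808 to 1.06 from 1 to 5 kb downstream. H3 at Tbx2 was likewise below both flanks in the MEF and iPSC libraries. It was 0.112 RPKM against 0.307 and 0.271 in MEF replicate 1, and 0.173 against 0.333 and 0.306 in iPSC replicate 2. The part of the H3 level in this H3K27me3 level was not tested.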
